A study of Ovis aries with 12 samples.

Results

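The genes ENSBTAG00000009841, ENSBTAG00000008966, ENSBTAG00000020141 and ENSBTAG00000012377 are 4 of the 24616 genes counted in this sheep RNA sequencing series. They were picked from genes already named in comparisons of these libraries, because high-fertility and low-fertility libraries did not overlap in either tissue and the direction was opposite in the 2 tissues. The values that chose them are the fertility differences in each tissue and the contrast between these differences, so those are given below as a description. Their tissue difference, averaged over fertility, was not among these values and was tested, with earlier results of these data known. The choice still favours genes with a small spread within groups, and that spread enters the tissue test, so its p-values may be too small.

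The study sequenced 12 libraries from flash-frozen tissue, 3 in each of 4 groups. The groups are Co-L and T-L, labelled as low fertility, and Co-H and T-H, labelled as high fertility. The T-L and T-H libraries were labelled endometrium. All 3 Co-L libraries and 2 Co-H libraries were labelled ovary, while Co-H 3 was labelled corpus luteum, and the file headers mark all 6 Co libraries CL. The sources used here do not give the meaning of Co and T or the way fertility was scored, and the labels name no breed, age, cycle stage or treatment. The design text calls the samples pooled and does not say that each library stands for another animal or another pool, so the spread that p-values measure is that between these libraries, which may be technical. The files carry cattle gene identifiers without gene names, so what the 4 genes encode is not stated here, and the labelled tissues were not checked against marker genes.

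The corpus luteum forms in the ovary after ovulation and secretes progesterone. The endometrium, the inner lining of the uterus, responds to progesterone and prepares for the embryo. In ruminants the endometrium in turn releases prostaglandin that ends the life of the corpus luteum when no embryo is recognised. A transcript measured in both tissues therefore comes from organs that signal to each other.

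Total counts ran from 12665680 to 17852552 in the Co libraries and from 9627378 to 13934369 in the T libraries. All 4 genes passed the filter on low counts, as did 14839 genes in all. Levels are given in CPM, the count relative to the library total, after edgeR's TMM (trimmed mean of M values) scaling, which sets the bulk of genes equal between libraries. The TMM factors were 0.745 to 0.864 in the Co-L libraries and Co-H 1, 0.977 in Co-H 2 and 1.00 in Co-H 3, and 1.03 to 1.23 in T. Co-L 3 stood apart in the Co tissue, with a mean Pearson's r across genes of 0.920 to the other Co libraries, where the other Co libraries had 0.950 to 0.959. In T it was T-H 1, with 0.951 to the other T libraries, where these had 0.968 to 0.971. Counts were not divided by gene length, so levels are compared between libraries and not between genes.

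The 4 genes formed 2 pairs by direction. ENSBTAG00000009841 and ENSBTAG00000008966 were lower at high fertility in Co and higher at high fertility in T. ENSBTAG00000020141 and ENSBTAG00000012377 were higher at high fertility in Co and lower in T. Among all tested genes 84 (0.566%) had fully separated libraries in the first pattern and 62 (0.418%) in the second, 146 (0.984%) together. High and low libraries did not overlap for 23.1% of the tested genes in Co and for 10.4% in T.

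**Figure D1:**
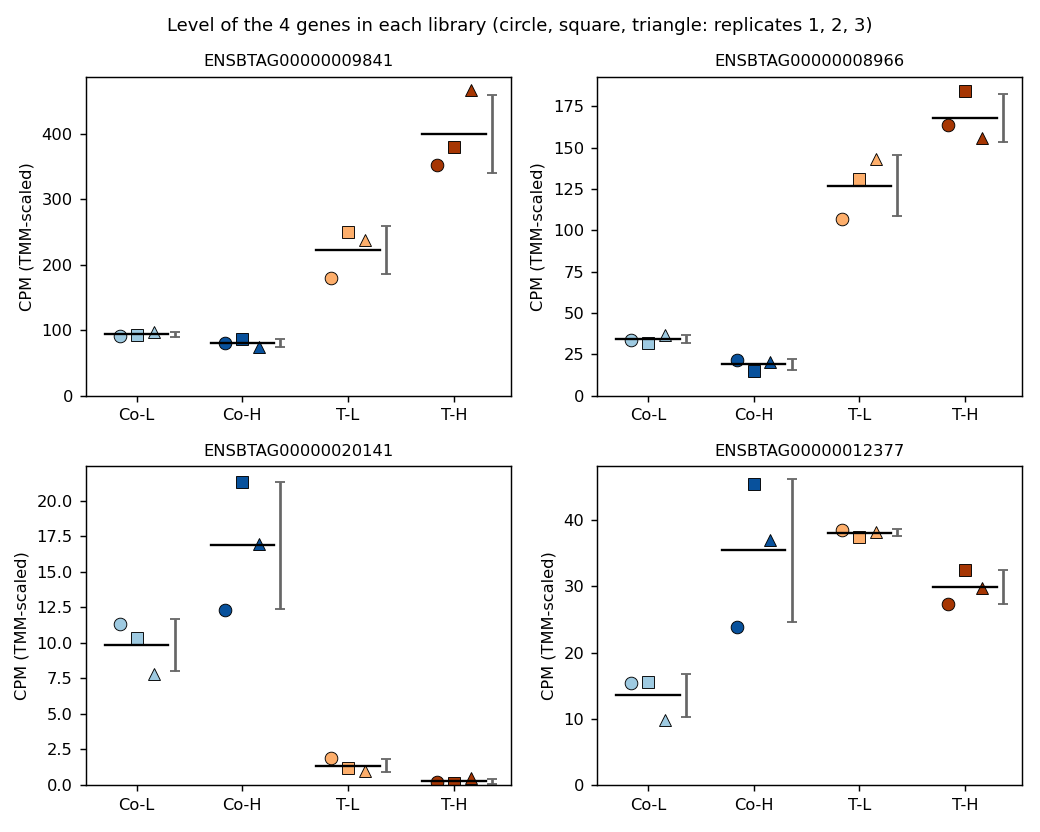
Level of each gene in TMM-scaled CPM (vertical axis) in the 3 libraries of each group (symbols), with the group mean (line) and SD (bar). The high-fertility groups lie on opposite sides of the low-fertility groups in Co and T, and the gap is narrowest for ENSBTAG00000009841 in Co, where 91.2 CPM in Co-L 1 faces 86.7 CPM in Co-H 2.

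ENSBTAG00000009841 was the gene with the larger fertility difference in the endometrium of the first pair, and its level was higher in T than in Co. In T-L it stood at 180 CPM in replicate 1, 250 CPM in replicate 2 and 238 CPM in replicate 3. In T-H the levels were 353, 380 and 467 CPM. Every T-H library exceeded every T-L library, with a 1.41-fold step between T-L 2 and T-H 1, the nearest of them.

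Its level in Co was far steadier. The Co-L libraries held 91.2, 92.0 and 97.4 CPM and the Co-H libraries 80.2, 86.7 and 73.7 CPM. These ranges did not overlap, but the step between the nearest libraries was only 1.05-fold. The group means were 223 ± 37.2 CPM in T-L, 400 ± 59.7 in T-H, 93.5 ± 3.37 in Co-L and 80.2 ± 6.49 in Co-H (SD, n = 3 each). From the lowest, the order was Co-H, Co-L, T-L, then T-H, and no 2 neighbours in it overlapped. The high-minus-low difference was −0.22 (SE 0.15) on the log2 scale in Co and 0.84 (SE 0.15) in T.

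The lower level in Co-H depended on the scaling. On the library total alone, an alternative added later, the mean of ENSBTAG00000009841 was 74.0 ± 5.20 CPM for the Co-L libraries and 75.4 ± 8.49 CPM for the Co-H libraries (SD, n = 3 each). The libraries of both groups then overlapped, from 68.5 to 78.8 CPM in Co-L and from 67.9 to 84.6 CPM in Co-H, and the log2 difference was 0.027. Without a scaling factor the median log2 difference of all tested genes was 0.17 in Co, against −0.07 with TMM. Relative to the median gene, ENSBTAG00000009841 was lower in Co-H by a similar amount in both, −0.15 without scaling and −0.15 with TMM. The opposite directions of this gene thus hold relative to the bulk of genes and not per total read. Without Co-L 3 the TMM-based difference was −0.13.

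**Figure D2:**
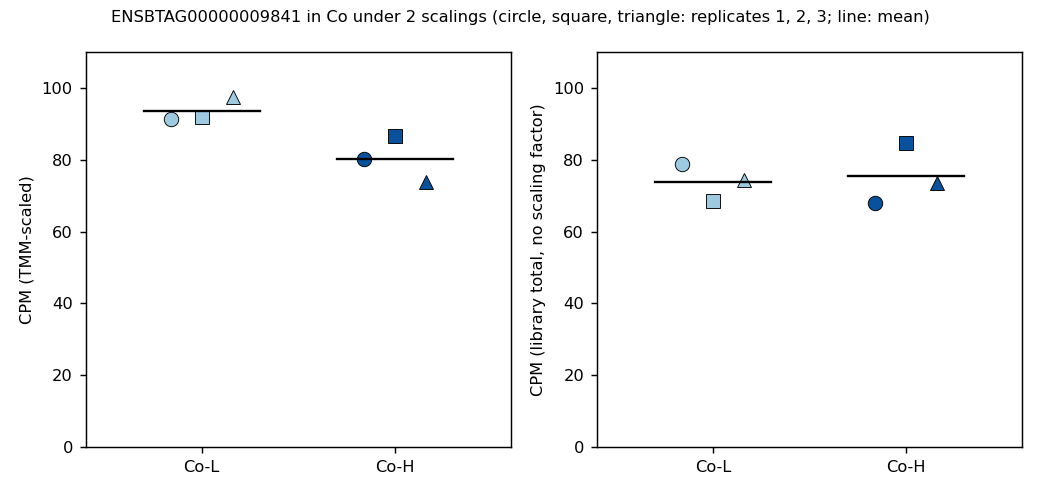
ENSBTAG00000009841 in the Co libraries, in TMM-scaled CPM (left) and in CPM of the library total (right), with 1 symbol per library and a line at the group mean. The groups are apart on the left, with means of 93.5 and 80.2 CPM, and overlap on the right, with means of 74.0 and 75.4 CPM.

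ENSBTAG00000008966 shared this direction but had its wider relative gap in Co. The Co-L libraries held 33.8, 31.8 and 36.9 CPM. The Co-H libraries held 21.3, 14.8 and 20.3 CPM, all below the Co-L libraries. The step between Co-L 2 and Co-H 1, the nearest libraries, was 1.50-fold.

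In the endometrium ENSBTAG00000008966 stood at 107, 131 and 143 CPM in T-L and at 164, 184 and 156 CPM in T-H. The groups did not overlap, with a 1.09-fold step between T-L 3 and T-H 3. Group means were 127 ± 18.5 CPM in T-L, 168 ± 14.6 in T-H, 34.2 ± 2.55 in Co-L and 18.8 ± 3.49 in Co-H (SD, n = 3 each). The high-minus-low difference was −0.86 (SE 0.16) in Co and 0.40 (SE 0.16) in T on the log2 scale. The order of the groups was the same as for ENSBTAG00000009841. On the library total alone both separations remained for this gene, with log2 differences of −0.62 in Co and 0.34 in T.

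The values of genes biased towards T are given beside these differences. The 936 genes called at least 8-fold higher in T, a class drawn from these libraries that holds none of the 4 genes, had a median log2 difference of −0.63 in Co, against −0.07 for all genes. Without Co-L 3 the median was −0.04, while ENSBTAG00000008966 stood at −0.74 and ENSBTAG00000009841 at −0.13. The class took 0.154%, 0.217% and 0.364% of the counts in Co-L 1, 2 and 3 and 0.114% to 0.170% in the Co-H libraries, so the groups overlapped. In T it took 5.71% to 6.96% in 5 libraries and 16.4% in T-H 1. Their part in the lower levels of ENSBTAG00000009841 and ENSBTAG00000008966 in Co-H was not tested. In bulk tissue, fewer cells of a type and less RNA per cell cannot be told apart.

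ENSBTAG00000020141 was the only gene among the 4 that was higher in Co than in T when averaged over fertility. The Co-L libraries held 11.3, 10.3 and 7.83 CPM and the Co-H libraries 12.3, 21.3 and 16.9 CPM. Co-H 1 lay just above Co-L 1, by 1.09-fold, so the separation in Co rested on a narrow step. The lowest level was in Co-L 3, the library that stood apart.

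In the endometrium ENSBTAG00000020141 was read from few counts. The T-L libraries had 29, 21 and 11 counts, or 1.87, 1.22 and 0.983 CPM. The T-H libraries had 2, 2 and 6 counts, or 0.177, 0.131 and 0.453 CPM. The groups did not overlap, with a 2.17-fold step between T-L 3 and T-H 3. Over the groups, 10 counts in T-H faced 61 in T-L, a scaled ratio of 0.181 with a 95% exact Poisson interval of 0.0825 to 0.355 that covers counting error only. The coefficient of variation of ENSBTAG00000020141 in T-H was 68.6%, where counting error alone gives 62.4%.

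Group means were 1.36 ± 0.457 CPM in T-L, 0.254 ± 0.174 in T-H, 9.83 ± 1.81 in Co-L and 16.9 ± 4.49 in Co-H (SD, n = 3 each). The order from the lowest was T-H, T-L, Co-L and Co-H, with no overlap between neighbours. The high-minus-low difference was 0.78 (SE 0.32) in Co and −2.40 (SE 0.46) in T on the log2 scale, and without T-H 3 the latter was −3.12. ENSBTAG00000020141 belonged to the 493 genes called at least 8-fold higher in Co. That class had a median log2 difference of −0.064 in T, against 0.005 for all genes. It took 0.443% to 0.548% of the counts in T-L and 0.469% to 0.517% in T-H, so its summed share overlapped between these groups. In Co the class took 9.24%, 11.2% and 7.83% in Co-L 1, 2 and 3 and 11.8% in each Co-H library. Its summed share was thus higher in every Co-H library, while its median log2 difference in Co was −1.5e-04, against −0.07 for all genes. The part of this class in the levels of ENSBTAG00000020141 in T-H and Co-H was not tested.

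ENSBTAG00000012377 was the gene whose T and Co libraries were apart at low fertility and overlapped at high fertility. The Co-L libraries held 15.3, 15.5 and 9.79 CPM. The Co-H libraries held 23.9, 45.4 and 37.0 CPM. All 3 exceeded the Co-L libraries, and the step from Co-L 2 to Co-H 1 was 1.54-fold.

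Its endometrial levels were tightly grouped. In T-L the libraries held 38.5, 37.5 and 38.2 CPM, and in T-H 27.3, 32.5 and 29.8 CPM. The step between T-L 2 and T-H 2 was 1.15-fold. Group means were 38.1 ± 0.529 CPM in T-L, 29.9 ± 2.59 in T-H, 13.6 ± 3.27 in Co-L and 35.4 ± 10.8 in Co-H (SD, n = 3 each). The coefficient of variation was 30.6% in Co-H and 1.39% in T-L, where counting error alone gives 4.31%, so the T-L libraries differed by less than sampling noise for this gene.

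From the lowest mean the order was Co-L, T-H, Co-H and T-L. Only Co-L lay apart from the other groups, since the Co-H libraries spanned both T-H and T-L. The high-minus-low difference was 1.38 (SE 0.23) in Co and −0.35 (SE 0.23) in T on the log2 scale. Within Co-H the level of Co-H 1 was the lowest, as it was for ENSBTAG00000020141, and without Co-H 1 the difference in Co was 1.69 for ENSBTAG00000012377 and 1.04 for ENSBTAG00000020141.

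**Figure D3:**
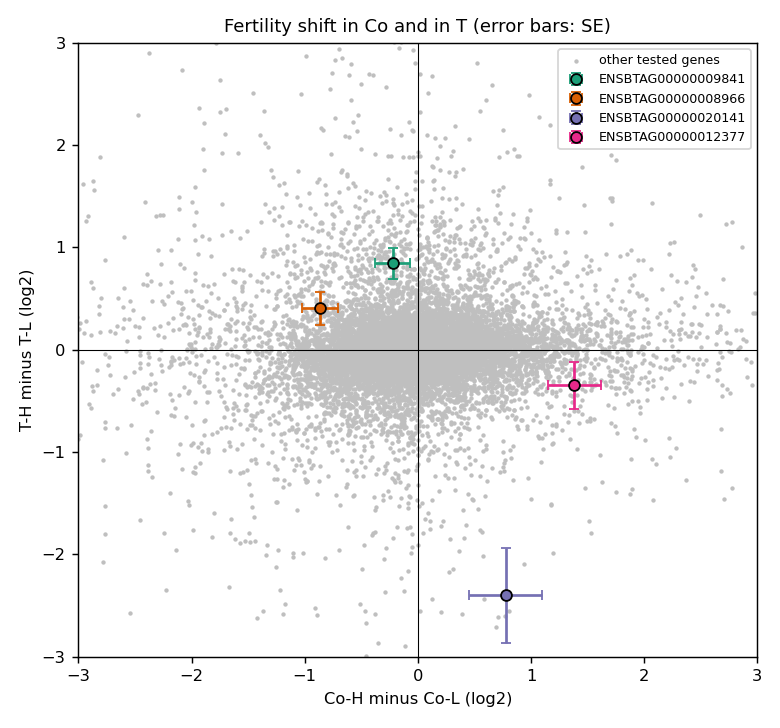
High-minus-low fertility difference on the log2 scale in Co (horizontal axis) and in T (vertical axis) for the 4 genes, with SE bars, and for the other tested genes in grey. ENSBTAG00000009841 and ENSBTAG00000008966 lie in the upper left quadrant and ENSBTAG00000020141 and ENSBTAG00000012377 in the lower right, and 308 genes fall outside the axes at 3.

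The contrast between the T and the Co difference was 1.07 (SE 0.22) for ENSBTAG00000009841, 1.27 (SE 0.23) for ENSBTAG00000008966, −3.18 (SE 0.57) for ENSBTAG00000020141 and −1.73 (SE 0.32) for ENSBTAG00000012377. In the fit across all genes, edgeR's quasi-likelihood test called 0 of 14839 genes for it (0% called, adjusted p = 0.257 for each of the 4), with an unadjusted p under 0.05 for 2423 genes. DESeq2 called 135 of 14839 genes, among them ENSBTAG00000009841, ENSBTAG00000008966 and ENSBTAG00000012377, and gave ENSBTAG00000020141 no adjusted p. Without Co-H 1 edgeR called 1237 of the 15181 genes tested in that fit. All 4 were among them, with edgeR adjusted p of 0.0353 (ENSBTAG00000009841), 0.0108 (ENSBTAG00000008966), 0.00588 (ENSBTAG00000020141) and 0.00155 (ENSBTAG00000012377). Sorted by the p of this contrast, the 4 genes held places 1, 2, 3 and 9 among the 146 oppositely separated genes, in the order ENSBTAG00000020141, ENSBTAG00000008966, ENSBTAG00000012377 and ENSBTAG00000009841. By the size of the contrast they held places 10, 50, 32 and 62, and the median size over the 146 genes was 0.92. ENSBTAG00000008966 and ENSBTAG00000012377 were among the 709 genes (4.78%) that edgeR called in Co-H against Co-L (2.46% of the tested genes higher, ENSBTAG00000012377 among them, and 2.32% lower, ENSBTAG00000008966 among them). Under 13 of the 20 alternatives run for Co these 2 genes were not called, with edgeR adjusted p of up to 0.214, among them the replicate block (0.0858 for each), no count filter (0.0508) and the 6 Co libraries alone (0.172). In T-H against T-L edgeR called 0 genes (0%), with an unadjusted p under 0.05 for 608. DESeq2 called 27 of 14839 genes, among them ENSBTAG00000009841 (DESeq2 adjusted p = 7.5e-04) and ENSBTAG00000020141 (DESeq2 adjusted p = 0.0174). The genes were drawn from these same contrasts, so nothing is read from these counts.

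The next genes by the p of the contrast, outside the choice, are given for comparison. ENSBTAG00000017741, at place 4 of the 146 genes, had a contrast of 1.46, with −1.30 in Co and 0.16 in T. ENSBTAG00000006225, at place 5, had 0.84, with −0.49 in Co and 0.35 in T.

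Leaving out any 1 library moved the sizes of the differences of these genes. Over the 12 libraries left out in turn, the difference in Co ranged from −0.28 to −0.13 for ENSBTAG00000009841 and from −0.93 to −0.72 for ENSBTAG00000008966. It ranged from 0.57 to 1.04 for ENSBTAG00000020141 and from 1.16 to 1.69 for ENSBTAG00000012377. In T the ranges were 0.70 to 0.94 and 0.28 to 0.48 for the first pair, and −3.12 to −2.07 and −0.43 to −0.29 for the second. No direction turned in these fits, which is no sign of stability, since genes with separated groups were chosen.

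**Figure D4:**
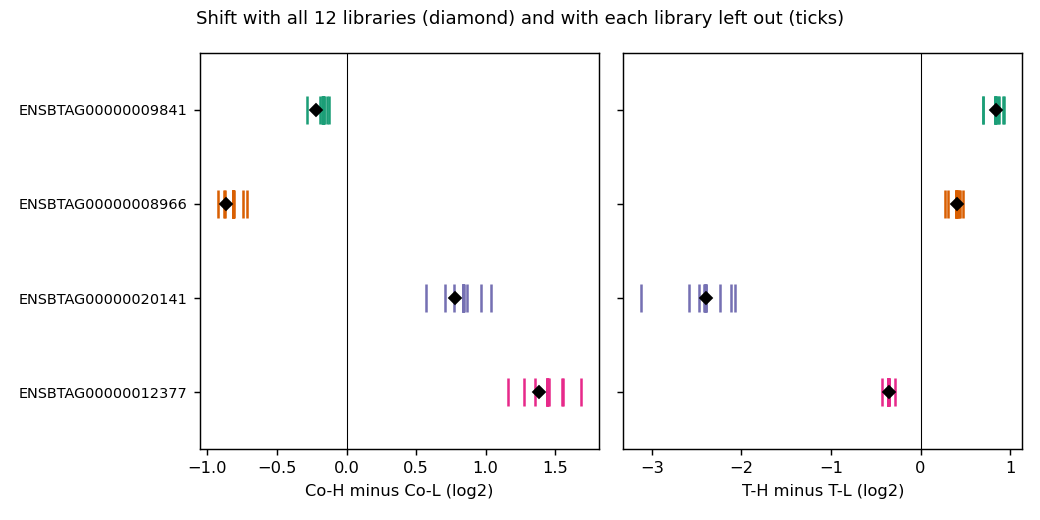
High-minus-low difference on the log2 scale of each gene in Co (left) and in T (right), with all 12 libraries (diamond) and with each library left out in turn (ticks). The widest spread of ticks is that of ENSBTAG00000020141 in T, from −3.12 to −2.07, and the value nearest 0 is −0.13, for ENSBTAG00000009841 in Co.

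A ratio of counts between 2 genes of the same library does not depend on the scaling factor. The count of each gene that was higher in Co-H was therefore divided by that of each gene that was lower, which gave 4 ratios in each library, and only their changes between groups are read. The log2 ratio of ENSBTAG00000012377 to ENSBTAG00000008966 was −1.14, −1.03 and −1.91 in Co-L and 0.17, 1.61 and 0.86 in Co-H. In T it was −1.47, −1.81 and −1.90 at low and −2.58, −2.50 and −2.38 at high fertility. The Co-H libraries all lay above the Co-L libraries and the T-H libraries all below the T-L libraries. The mean change was 2.24 in Co and −0.76 in T.

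The other ratios were separated in the same way. For ENSBTAG00000020141 to ENSBTAG00000009841 the mean change was 0.98 in Co and −3.22 in T. For ENSBTAG00000020141 to ENSBTAG00000008966 it was 1.63 and −2.78. The ratio of ENSBTAG00000012377 to ENSBTAG00000009841 changed by 1.59 in Co and by −1.20 in T. The narrowest step between high and low libraries was 0.31, in Co, for the first of these ratios. These ratios rest on the counts that chose the genes and describe them without being a test.

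**Figure D5:**
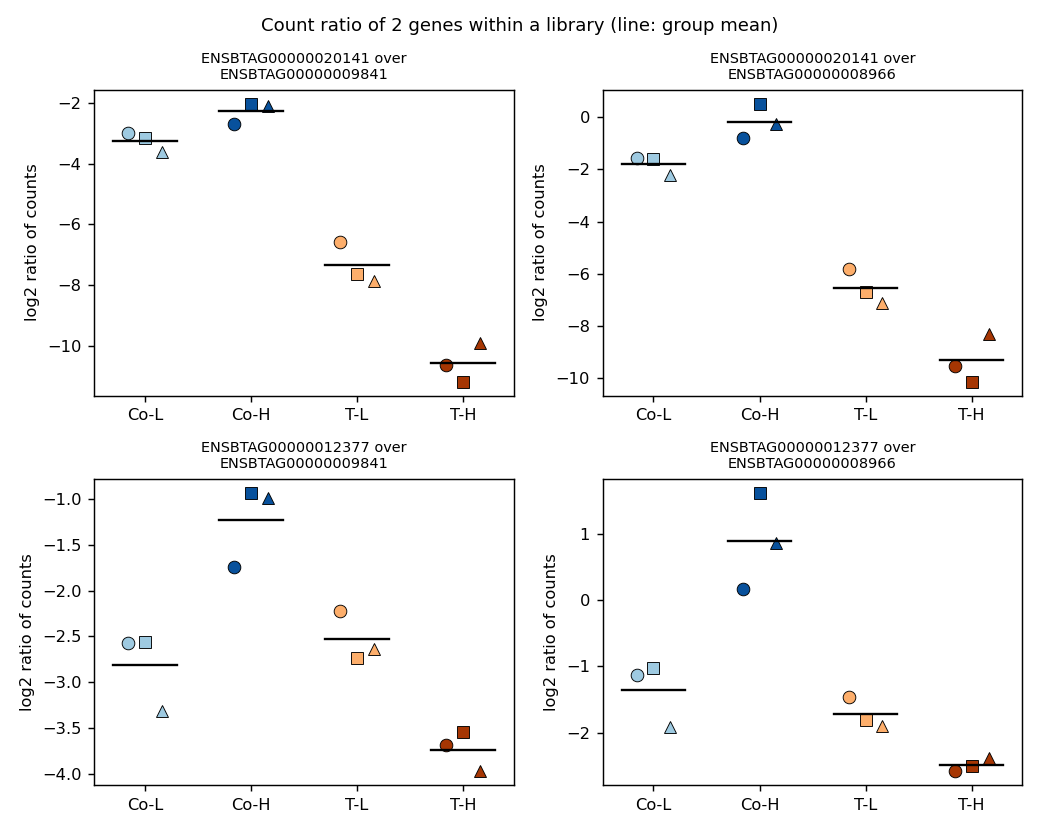
Log2 ratio of the counts of 2 genes within each library (vertical axis) in the 4 groups, with 1 symbol per library and a line at the group mean. In all 4 panels the Co-H libraries lie above the Co-L libraries and the T-H libraries below the T-L libraries, with a mean change of 2.24 in Co and −0.76 in T for ENSBTAG00000012377 over ENSBTAG00000008966.

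The tissue comparison asked how the 4 genes differed between T and Co, averaged over fertility. All 4 differed, in a contrast that called 64.4% of the tested genes, 31.7% higher and 32.7% lower in T. The SE and adjusted p below rest on a spread that the choice of the genes may have made small. ENSBTAG00000008966 was higher in T, at 147 ± 26.9 CPM against 26.5 ± 8.86 in Co (SD, n = 6 each), which is 2.53 on the log2 scale (SE 0.12, edgeR adjusted p = 2.1e-08). ENSBTAG00000009841 was also higher in T, at 311 ± 107 CPM against 86.9 ± 8.65, or 1.78 on the log2 scale (SE 0.11, edgeR adjusted p = 1.5e-07). Every T library exceeded every Co library for both.

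ENSBTAG00000020141 was lower in T, at 0.806 ± 0.680 CPM against 13.3 ± 4.91 in Co, or −4.43 on the log2 scale (SE 0.29, edgeR adjusted p = 2.1e-07). Its T libraries all lay below its Co libraries. The libraries of the tissues did not overlap for 40.2% of all tested genes. ENSBTAG00000012377 was higher in T by 0.62 on the log2 scale (SE 0.16, edgeR adjusted p = 0.00550), at 34.0 ± 4.79 CPM against 24.5 ± 14.0, and here the libraries overlapped. On the library total alone its tissue difference was 1.04 where the median gene stood at 0.42, which leaves 0.61 relative to the median.

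The tissue difference at each fertility level restates the contrast that chose the genes and is a description. Between T and Co it was 1.25 at low and 2.32 at high fertility for ENSBTAG00000009841, and 1.89 and 3.16 for ENSBTAG00000008966, on the log2 scale. For ENSBTAG00000020141 it was −2.84 at low and −6.01 at high fertility, the latter against 10 counts in T-H. For ENSBTAG00000012377 it went from 1.49 at low to −0.25 at high fertility, where the T and Co libraries overlapped. It was thus wider at high fertility for 3 of the 4 genes, where it was so for 79 of the 146 oppositely separated genes (54.1%) and for 51.9% of all tested genes, and nothing is read from this count.

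The genes whose pattern was most like each of the 4 were found by Pearson's r of log2 CPM over the 12 libraries, which is set mostly by the tissue. For ENSBTAG00000009841 it was ENSBTAG00000014821 (r = 0.979), at 37.9 ± 6.72 CPM in T-L, 62.1 ± 3.99 in T-H, 15.5 ± 0.515 in Co-L and 11.8 ± 2.93 in Co-H (SD, n = 3 each). For ENSBTAG00000012377 it was ENSBTAG00000011826 (r = 0.960), with high-minus-low differences of 0.96 in Co and −0.25 in T. Both were themselves among the 146 oppositely separated genes.

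The other two matches followed the tissue difference without full separation in both tissues. For ENSBTAG00000008966 it was ENSBTAG00000017846 (r = 0.989), with high-minus-low differences of −0.50 in Co and 0.10 in T. For ENSBTAG00000020141 it was ENSBTAG00000013496 (r = 0.977), with 0.34 in Co and −0.97 in T. An r over 0.9 was reached by 1453 genes for ENSBTAG00000008966, 844 for ENSBTAG00000009841 and 790 for ENSBTAG00000020141. For ENSBTAG00000012377, with its small tissue difference, 48 genes reached it.

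The spread between replicates was set beside that of genes of like level. The biological coefficient of variation fitted by edgeR was 0.163 for ENSBTAG00000009841, 0.160 for ENSBTAG00000008966, 0.274 for ENSBTAG00000020141 and 0.208 for ENSBTAG00000012377. Over the 500 genes nearest in mean log2 CPM to each, the median was 0.172, 0.160, 0.344 and 0.175. ENSBTAG00000012377 was more variable than most genes of like level, with 29.4% of them above it. ENSBTAG00000020141 was less variable than most, with 73.6% above it. Its neighbours share its mean over both tissues and need not share its level in either, since its tissue difference was −4.43. The 4 genes were also chosen for groups without overlap, which favours a small spread, so nothing is read from these percentages.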

How the data were processed

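Total RNA was isolated with Trizol, and TruSeq kits from Illumina were used for the libraries, per the labels' protocols. The authors deposited raw read counts per gene, 24616 cattle gene identifiers in each of 12 files, per the file headers. Bowtie 0.12.2 is named in the submitters' processing notes, which give the build as bosTau8 (cattle) for 7 of the libraries. The build of the other 5 libraries, the counter, the annotation and the strand setting are not stated in the sources used, so reads shared with near-identical, overlapping or antisense genes cannot be told apart. A blank line was skipped in one file, and a header that ran into the first gene was split in another. The sheep gene table used here held 0 of the identifiers, so no gene was named, no sequence shown, and the planned marker and gene lists were not used.

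Groups came from the sample titles. The counts were fitted with edgeR 4.0.16 in R 4.3.3: filterByExpr (minimum count 10), TMM scaling, 1 mean per group over all 12 libraries, the quasi-likelihood test, and Benjamini-Hochberg adjustment over 14839 genes in each of 4 contrasts, called under 0.05. Log2 CPM used a prior count of 2, and count ratios an offset of 0.5 counts. Each SE is the absolute log2 difference divided by the square root of the F statistic of the quasi-likelihood test. For the difference of ENSBTAG00000020141 in T it was 0.46, where the SE fitted by DESeq2 was 0.58. The rule for named genes took the 4 genes and, for each, the gene with the highest r. The genes ENSBTAG00000017741 and ENSBTAG00000006225 were added after their values were seen. The 4 genes, lists and tests were chosen with earlier results of these data known. Replicates differed beyond sampling noise, with a chi-square per degree of freedom of at least 15.0 over the 12 pairs within groups. The test was tested on simulated counts. Alternatives were RLE factors, DESeq2 1.42.0, no count filter, the replicate number as a block, the 6 libraries of a tissue alone and each library left out. Scaling by the library total or the upper quartile, and leaving out Co-H 1 with Co-L 3, were added after the data were seen.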

Additional observations from a re-analysis of the deposited data

Results flagged for a closer look

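The 4 genes had high-fertility and low-fertility libraries that did not overlap in either tissue, with opposite directions in Co and T, which is also how they were chosen. The T minus the Co difference was 1.07 for ENSBTAG00000009841, 1.27 for ENSBTAG00000008966, −3.18 for ENSBTAG00000020141 and −1.73 for ENSBTAG00000012377 on the log2 scale. In edgeR the adjusted p of this contrast was 0.257 for each.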

How the results depend on the processing

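The tissue difference of each of the 4 genes, averaged over fertility, kept its direction and its call under the 19 alternatives run for it (adjusted p of at most 0.0116). The ranges over single libraries left out were 1.75 to 1.94 for ENSBTAG00000009841, 2.45 to 2.67 for ENSBTAG00000008966, −4.70 to −4.18 for ENSBTAG00000020141 and 0.58 to 0.75 for ENSBTAG00000012377. For ENSBTAG00000012377 this average joins 1.49 at low and −0.25 at high fertility in the main fit. On the library total alone the difference of ENSBTAG00000009841 in Co turned to 0.027 and that of ENSBTAG00000008966 was −0.62. The contrast between tissues was then 0.76 for ENSBTAG00000009841, 0.96 for ENSBTAG00000008966 and −2.06 for ENSBTAG00000012377. High and low libraries were oppositely separated for 152 genes on that scale, of which 64 were among the 146 with TMM. In T the difference of ENSBTAG00000020141 ranged from −3.12 to −2.07 with single libraries left out. The contrast ranged from 0.87 to 1.13 for ENSBTAG00000009841, 1.09 to 1.33 for ENSBTAG00000008966, −3.95 to −2.91 for ENSBTAG00000020141 and −2.04 to −1.51 for ENSBTAG00000012377 in the same fits.

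Counts of called genes moved more. In Co-H against Co-L edgeR called 709 genes, 3 without a count filter, 1 with only the 6 Co libraries, 1290 on the library total alone (86.4% of them higher, against 51.5% with TMM) and 0 to 3110 with single libraries left out, while DESeq2 called 2271. The highest count was without Co-H 1 (1131 without Co-L 1). Leaving out T-L 1 gave 2, leaving out Co-L 2 gave 7 and leaving out Co-L 3 gave 1. The count was 0 without Co-H 2, without Co-H 3, and without any 1 T library other than T-L 1. In T-H against T-L DESeq2 called 27 and edgeR 1 with only the 6 T libraries, against 0. For the contrast between tissues the count was 0 to 1237 with single libraries left out, the highest without Co-H 1, and 135 in DESeq2. Without both Co-H 1 and Co-L 3 edgeR called 2664 genes in Co and 1262 for the contrast between tissues, where ENSBTAG00000009841 had an adjusted p of 0.0535. The cause was not tested. In T against Co 72.9% of the calls were higher in T on the library total alone, against 49.2% with TMM.

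The replicate block lowered the count in Co-H against Co-L from 709 to 0 and left the tissue count at 9341 against 9553. Library deviations correlated above 0.1 in 3 of 18 pairs with the same replicate number and 5 of 36 others. Best matches shared the number in 14 of 36 comparisons. Between Co-L and Co-H, the groups of the contrast that the block changed, r was 0.213, 0.019 and 0.249 for the same number. It was at most 0.081 otherwise. Between T-L and T-H, r was at most −0.020 for the same number, against 0.178 otherwise. Between Co-L and T-L, r was 0.072, 0.092 and 0.138 for the same number and at most 0.050 otherwise. Between Co-H and T-H it was at most 0.0048, against 0.104. Whether the numbers pair samples was not settled. With the block the tissue differences were 1.78, 2.53, −4.42 and 0.63 in the order above. Depth limits ENSBTAG00000020141 in T, where T-H held 10 counts.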
